A study of Arabidopsis thaliana with 12 samples.

Results

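*atpB* and *atpE* are neighbouring chloroplast genes on the minus strand, taken here as 1 mRNA, though counts cannot separate transcripts of *atpE* alone. Their members were chosen by position, as the minus-strand segments that overlap the stretch of the chloroplast genome (Pt, TAIR10) between 544 nt before the *atpB* start codon and 115 nt after the *atpE* stop codon. These are 8 of the 555 deposited precipitate segments and 14 of the 574 input segments. The stretch was divided into 4 parts, which are the leader of 544 nt, *atpB* (nt 52660 to 54156), *atpE* (nt 52265 to 52663) and the 3′ end of 115 nt. RNA came from Arabidopsis seedlings, 10 days old, that expressed *At*MKIP1-YFP from the *UBQ10* promoter in the *mkip1-2* mutant, or *At*BE3-YFP from the same promoter in Col-0. *At*MKIP1 is a plastid protein related to starch branching enzymes that the study examines as a partner of the intron splicing factor MatK, and *At*BE3 is a starch branching enzyme used as the control bait. The *At*BE3-YFP plants still have their own untagged *At*MKIP1, and line and bait differ together, so that they cannot be told apart. Each line was represented by 3 pools of 10 g of seedlings, and from every pool both the RNA held on anti-YFP beads (precipitate) and the RNA of the extract (input) were sequenced.

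*atpB* encodes the β subunit of the CF1 head of the chloroplast ATP synthase, which carries the catalytic nucleotide-binding sites. *atpE* encodes the ε subunit, part of the central stalk, which can restrain ATP hydrolysis in the dark. Neither gene has an intron, so neither belongs to the group IIA introns that MatK acts on. The other plastid genes of the same enzyme are *atpI*, *atpH*, *atpF* and *atpA*, and of these *atpF* carries a MatK target intron.

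The reference sequence shows how closely both frames are joined, and it is printed from the minus strand, 5′ to 3′, in DNA letters. The first stretch, Pt:52631-52693, is the end of *atpB* and the start of *atpE*, with capitals for the 4 bases that both frames share.
atpB end and atpE start: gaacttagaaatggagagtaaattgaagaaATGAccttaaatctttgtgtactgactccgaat
The ATG of *atpE* therefore overlaps the TGA stop codon of *atpB*, and reads from this spot belong to both genes. The second stretch, Pt:52965-53159, lies inside *atpB* and holds the bases 998 to 1192 of its frame. It is shown because 2 narrow precipitate segments, in capitals, had higher levels than the stretch between them and than the body of *atpB* upstream.
atpB stretch with both narrow segments: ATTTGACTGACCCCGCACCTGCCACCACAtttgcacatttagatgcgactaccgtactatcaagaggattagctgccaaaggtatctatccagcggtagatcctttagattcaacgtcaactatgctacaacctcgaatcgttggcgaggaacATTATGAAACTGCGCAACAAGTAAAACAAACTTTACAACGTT
The upstream narrow segment is 29 nt long with 58.6% G and C, the downstream one is 42 nt long with 31.0%, and *atpB* as a whole has 42.5%. The third stretch, Pt:52181-52210, is where the precipitate signal stepped down behind *atpE*, with capitals for a 2-nt segment 69 to 70 nt after the stop codon.
3 prime step: aaagacgataaaaaCAataaaataaaaaaa
These 30 bases are 13.3% G and C.

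Mapped chloroplast reads numbered between 213384 and 319005 in *At*MKIP1-YFP precipitates, 119799 and 257634 in *At*BE3-YFP precipitates, 2213500 and 2868106 in *At*MKIP1-YFP inputs, and 2241732 and 2740959 in *At*BE3-YFP inputs. Levels are given as reads per kb per 1000000 mapped reads, where 38 nt were added to each segment length because a read counts in each segment that it overlaps. The tables hold chloroplast reads, so the nuclear bait genes could not be checked in them. The target loci are the genes with MatK target introns, the neighbourhood of *rpl2* and part of a group IIB intron of *rps12*. Of their 425 precipitate segments tested, 397 (93.4%) were higher with *At*MKIP1-YFP. That share is no independent check of the precipitation. The paper shows enrichment beside *rpl2* and in that part of *rps12* from these same data. The segment borders were also drawn from the same contrast of the baits. Of all 553 segments tested, 400 were higher and 84 lower by edgeR's quasi-likelihood test at an adjusted p under 0.01, and 144 were higher and 198 lower with TMM scaling. The 128 segments tested outside the target loci had a median log2 fold change of -0.74, and that shift was -0.74 as well over the 110 genes and parts tested. Scaling the libraries on the segments outside the target loci, among them the 8 precipitate members, removed it by construction (medians of 0.01 and 0.02). The precipitate differences of the members are therefore also given on that scale, which is relative to those segments.

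The *atpB* and *atpE* mRNA was lower with *At*MKIP1-YFP than with *At*BE3-YFP along nearly its whole length. Of its 8 precipitate segments, 7 were lower and none was higher, against a background of 15.2% lower among all segments tested and of 64.8% among those outside the target loci. In these 7 segments the libraries of both baits did not overlap, which held for 17.9% of all segments in the lower direction. That share includes the 425 segments of the target loci, of which 93.4% were higher. It was not taken for the segments outside them, so it is too low a background for these members. The median log2 fold change of the 8 segments was -1.31. DiffSegR drew the borders from the contrast of the baits itself, and the p-values of the segments make no allowance for that.

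The widest body of *atpB* and most of the leader lie in 1 segment, nt 53160 to 54635. Its levels were 1322, 1176 and 1210 in the *At*MKIP1-YFP precipitates and 2197, 2618 and 2828 in those of *At*BE3-YFP. All *At*MKIP1-YFP libraries were close together and below every *At*BE3-YFP library. The log2 fold change was -1.04 (SE 0.18, adjusted p = 6.6e-05). Scaled on the segments outside the target loci it was -0.29 and did not pass (adjusted p = 0.096), and it was -3.19 with TMM and -3.02 with the size factors of DESeq2. The segment spans 479 nt of leader and 997 nt of *atpB* with no border at the start codon.

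The end of *atpB*, all of *atpE* and the first 68 nt behind it form another segment, nt 52197 to 52964. Its levels were 2750, 2722 and 2480 in the *At*MKIP1-YFP precipitates, against 5835, 5981 and 7550 in those of *At*BE3-YFP. These are 473, 700 and 536 reads against 755, 1242 and 729, the best covered member of the window. The groups again did not overlap, and the log2 fold change was -1.28 (SE 0.18, adjusted p = 1.0e-05).

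Between both lies the middle stretch of *atpB* with the narrow segments. The segment nt 53131 to 53159 had levels of 5246, 3462 and 2895 in the *At*MKIP1-YFP precipitates and of 6880, 7937 and 19685 in those of *At*BE3-YFP. The segment nt 52965 to 53006 had 3222, 2900 and 2518, against 7086, 7423 and 15756. In the 124 nt between them, nt 53007 to 53130, the levels were 1880, 1200 and 1428, against 2461, 2971 and 6132. *At*BE3-YFP replicate 3, the library with the fewest mapped reads, stood 2.48-fold, 2.12-fold and 2.06-fold above the higher of the other *At*BE3-YFP libraries in these 3 segments, against 1.08-fold in the body nt 53160 to 54635 and 1.26-fold in the segment with *atpE*. The log2 fold changes were -1.55 (SE 0.38), -1.79 (SE 0.32) and -1.34 (SE 0.33) in the order given, with adjusted p-values of 0.0014, 0.00010 and 0.0016. Without *At*BE3-YFP replicate 3 they were -0.96, -1.34 and -0.88 and all still passed. Without *At*MKIP1-YFP replicate 3 the segments nt 53131 to 53159 and nt 53007 to 53130 no longer passed (adjusted p = 0.019 and 0.016).

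**Figure D1:**
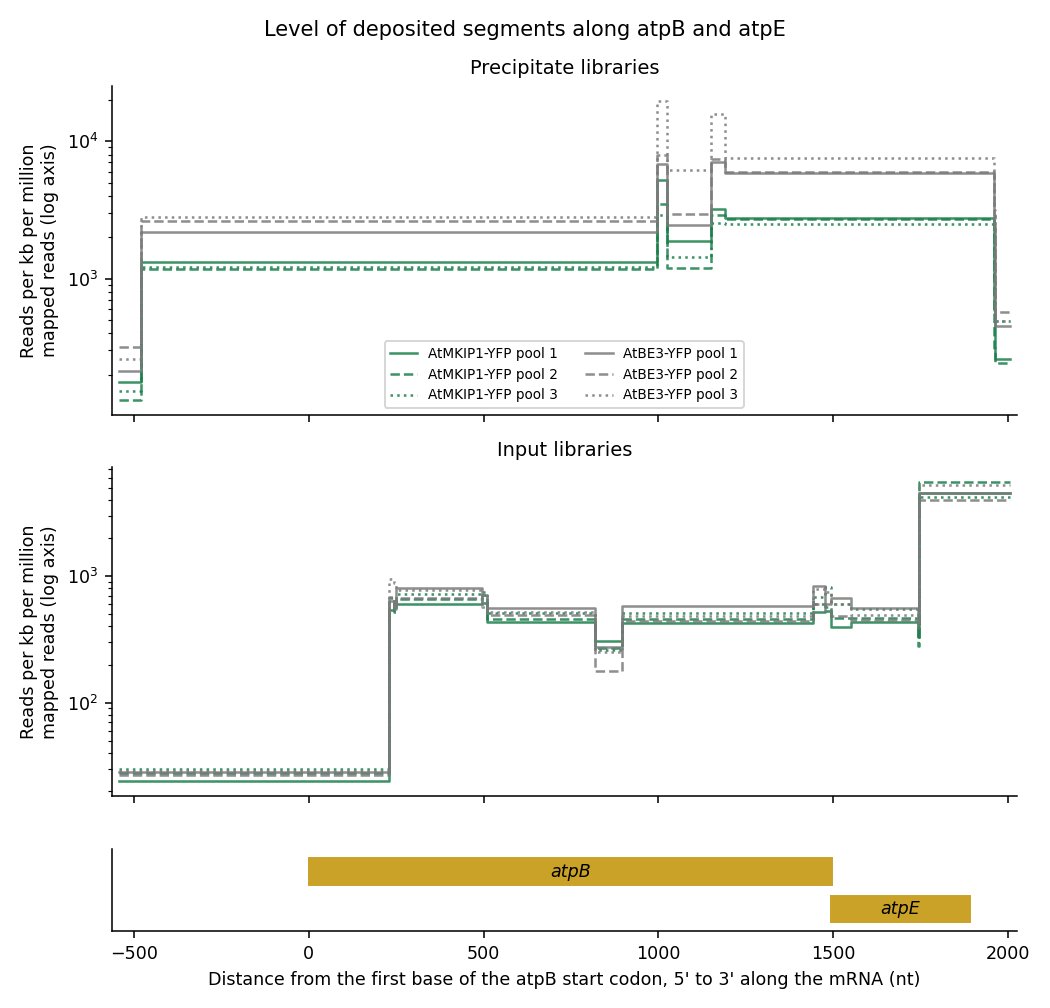
Level of each deposited segment along the *atpB* and *atpE* mRNA, in reads per kb per 1000000 mapped reads on a log axis, against the distance from the *atpB* start codon in nt, with the annotated frames below. Each line is 1 library (green for *At*MKIP1-YFP, grey for *At*BE3-YFP), and the outermost segments of each panel run on beyond the window into other genes. In the precipitates the levels are higher over *atpE* than over the leader and the 5′ body of *atpB*, with 2 narrow segments of high level inside *atpB*, and fall behind *atpE*. The *At*MKIP1-YFP libraries lie below in each segment but the last at the 3′ side, whereas the input libraries overlap in 13 of 14 segments.

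The profile along the mRNA had the same outline in the precipitates of both baits. The upstream narrow segment stood 3.10 ± 0.80-fold (SD, n = 3) above the body of *atpB* in the *At*MKIP1-YFP precipitates and 4.37 ± 2.24-fold in those of *At*BE3-YFP. The downstream one stood 2.33 ± 0.21-fold above it with *At*MKIP1-YFP and 3.88 ± 1.48-fold with *At*BE3-YFP. Levels in such short segments rest on the assumed read length: over all 6 libraries the upstream ratio lay between 3.44 and 10.0 with reads of 18 nt and between 1.85 and 5.37 with reads of 60 nt, and the downstream one between 2.78 and 7.45 and between 1.67 and 4.47. In each library and at each of these read lengths both narrow segments exceeded the body and the 124 nt between them. Against the segment with *atpE* this did not hold: the downstream narrow segment had 1.08 ± 0.08 times its level with *At*MKIP1-YFP and 1.51 ± 0.50 times with *At*BE3-YFP, and 0.88 ± 0.06 and 1.23 ± 0.40 times with reads of 60 nt. The segment with *atpE* exceeded the body 2.15 ± 0.15-fold with *At*MKIP1-YFP and 2.54 ± 0.22-fold with *At*BE3-YFP.

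Both ends of the signal also fell inside the window. Behind *atpE*, the 2-nt segment nt 52195 to 52196 was overlapped by 5, 4 and 11 reads in the *At*MKIP1-YFP precipitates and by 15, 30 and 15 in those of *At*BE3-YFP. This member had the lowest log2 fold change of the 8, -2.13 (SE 0.36, adjusted p = 6.8e-05), on the fewest reads. The next segment, nt 51873 to 52194, has only 45 nt in the window and runs on to *trnV-UAC* (nt 51199 to 51871), a gene with a target intron. Reads that extend into it from *trnV-UAC* cannot be told apart from those behind *atpE*. Its levels were 260, 244 and 487 with *At*MKIP1-YFP and 450, 571 and 487 with *At*BE3-YFP. That is 8.94 ± 3.35-fold below the segment with *atpE* in the *At*MKIP1-YFP precipitates and 12.98 ± 2.52-fold below it in those of *At*BE3-YFP (SD, n = 3 each). It was the member that did not pass, with overlapping libraries and a log2 fold change of -0.62 (SE 0.29, adjusted p = 0.055). At the 5′ side, the segment nt 54636 to 56679 covers the last 65 nt of the leader window and then the strand opposite *rbcL*. Its levels were 178, 131 and 150 in the *At*MKIP1-YFP precipitates, against 212, 315 and 261 in those of *At*BE3-YFP. Its log2 fold change of -0.79 (SE 0.24, adjusted p = 0.0065) no longer passed without *At*MKIP1-YFP replicate 2 or 3 or *At*BE3-YFP replicate 2 (adjusted p = 0.066, 0.031 and 0.028), nor with the replicate block (0.020).

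For the 4 parts, the reads of each segment were divided by overlap. The level of *atpB* was 1643 ± 126 in the *At*MKIP1-YFP precipitates and 3837 ± 816 in those of *At*BE3-YFP (SD, n = 3 each), a log2 fold change of -1.22 (SE 0.13, adjusted p = 6.3e-10 in edgeR's test). *atpE* had 2651 ± 148, against 6455 ± 951, and a log2 fold change of -1.28 (SE 0.12, adjusted p = 9.4e-11). The leader had 1106 ± 70 and 2275 ± 287, with a log2 fold change of -1.04 (SE 0.13). The 3′ end had 1708 ± 32 and 4062 ± 565, with a log2 fold change of -1.22 (SE 0.13). All 4 were lower, as were 71.8% of the 110 genes and parts tested. *atpE* and the 3′ end take most of their reads from the same segment, and so do the leader and the 5′ body of *atpB*, so their fold changes are not independent of each other.

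Most of that difference was shared with other chloroplast RNA. With the libraries scaled on the segments outside the target loci, *atpE* was still lower, with a log2 fold change of -0.52 (adjusted p = 0.0028), and so was the 3′ end at -0.46 (adjusted p = 0.0096). *atpB* at -0.46 and the leader at -0.29 did not pass (adjusted p = 0.019 and 0.035). On this scale 6.60% of the 106 genes and parts tested were lower. Over the alternatives run, *atpB* kept its sign with log2 fold changes between -1.94 and -0.46, and *atpE* between -1.99 and -0.51. Of the 8 segments, 3 remained lower on this scale, against 0.906% of all segments tested and 3.94% of those outside the target loci. They were nt 52195 to 52196 (-1.38), nt 52965 to 53006 (-1.02) and nt 52197 to 52964 (-0.53), with adjusted p-values of 0.0038, 0.0078 and 0.0071. These 3 adjoin each other and share the reads that cross their borders, so they are not independent. Every read of the 2-nt segment also counts in a neighbouring segment. The other 5 did not pass, with -0.79 at nt 53131 to 53159, -0.58 at nt 53007 to 53130, -0.29 at nt 53160 to 54635, -0.05 at nt 54636 to 56679 and 0.13 at nt 51873 to 52194 (adjusted p = 0.068, 0.11, 0.096, 0.84 and 0.70).

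**Figure D2:**
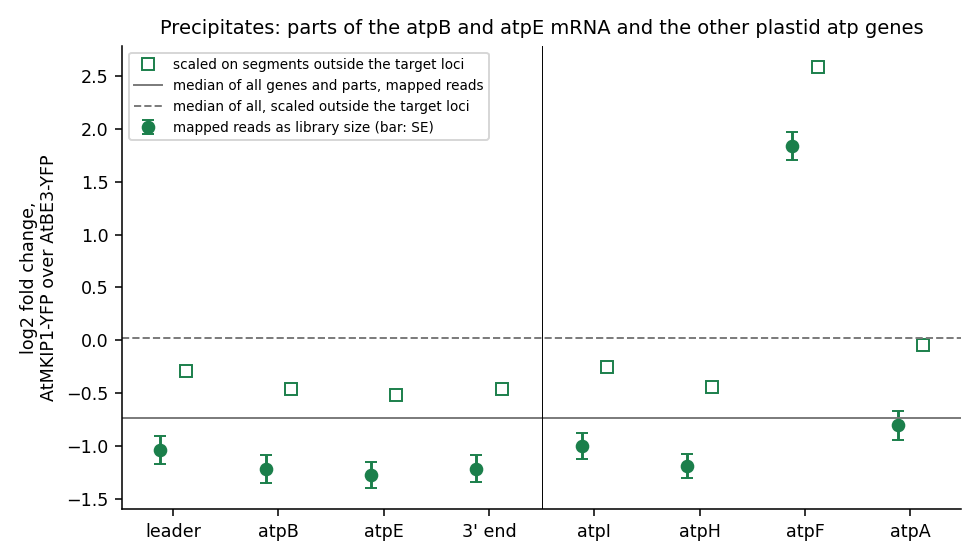
Log2 fold change of *At*MKIP1-YFP over *At*BE3-YFP in the precipitates for the leader, *atpB*, *atpE*, the 3′ end and the other plastid *atp* genes. Filled circles use the mapped reads as library size with bars of 1 SE, open squares scale on segments outside the target loci, and the lines are the medians over all genes and parts on each scale (-0.74 and 0.02). All 4 parts lie below the median on both scales, and *atpF* at 1.84 lies far above it.

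In the inputs, no difference between the lines was detected for this mRNA. The pools are whole seedlings, in which fewer cells or plastids and less RNA in each cannot be told apart. None of the 14 input segments passed, and 0 of them had an unadjusted p under 0.05 in edgeR's test. Over all 572 input segments tested, 0.175% were lower and 1.57% higher. The log2 fold changes of the 14 ran from -0.40 to 0.23 with SEs of up to 0.24 and a median of -0.11. The libraries overlapped in 13 of them, and 4.72% of all input segments were lower without overlap. The exception was a 3-nt segment, nt 52412 to 52414, with 30, 30 and 43 reads from *At*MKIP1-YFP and 56, 37 and 39 reads from *At*BE3-YFP plants, which are levels of 331, 282 and 366, against 498, 403 and 390.

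The outer input segments do not isolate the leader, the 3′ end or the last part of *atpE*. The segment nt 51771 to 52411 also covers the first exon of *trnV-UAC* and held 6827, 9667 and 8272 reads in the *At*MKIP1-YFP inputs and 8412, 6097 and 8639 in those of *At*BE3-YFP. The segment nt 53928 to 63432 covers the leader and the first 229 nt of *atpB* in 9505 nt. Input levels were therefore taken over inner stretches, nt 52680 to 53927 for *atpB* and nt 52412 to 52661 for *atpE*, a choice made after seeing the segments. The 18-nt segment between these stretches, nt 52662 to 52679, holds 2 of the 4 bases that both genes share and was left out.

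Over these inner stretches, *atpB* had input levels of 462, 495 and 545 in the *At*MKIP1-YFP plants and of 606, 490 and 551 in the *At*BE3-YFP plants. *atpE* had 426, 467 and 558, against 586, 460 and 517. The libraries of both lines were mixed in each gene. The log2 fold change was -0.13 (SE 0.16) for *atpB* and -0.11 (SE 0.17) for *atpE*, and the range of 2 SE either way ran from -0.46 to 0.20 and from -0.45 to 0.23. Without this restriction the values were -0.13 for *atpB* and 0.03 for *atpE*, where the *atpE* value includes *trnV-UAC* reads. Between the lowest and the highest of the 12 input segments from nt 52412 to 53927 lay 2.46-fold in the *At*MKIP1-YFP inputs (279 at nt 53260 to 53338, 686 at nt 53648 to 53661) and 3.21-fold in those of *At*BE3-YFP. Over the 5 precipitate segments from nt 52197 to 54635 it was 3.13-fold with *At*MKIP1-YFP and 4.51-fold with *At*BE3-YFP, and the first of these lies below the input range of *At*BE3-YFP. Both narrow precipitate segments lie inside the input segment nt 52714 to 53259, in which no border was set, and its level was 465 ± 40 with *At*MKIP1-YFP and 498 ± 71 with *At*BE3-YFP.

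**Figure D3:**
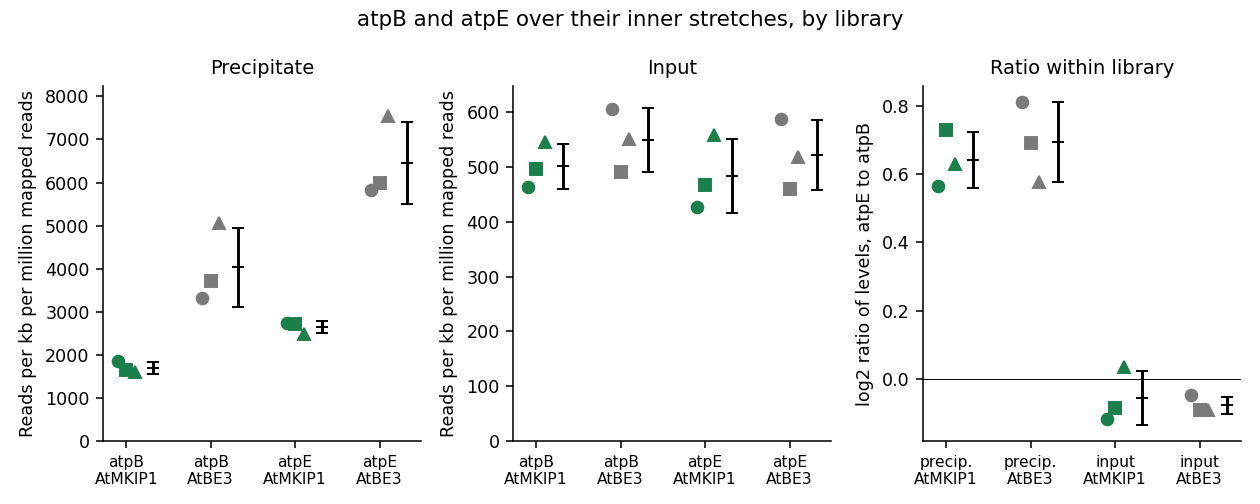
Levels of *atpB* and *atpE* over their inner stretches in reads per kb per 1000000 mapped reads (precipitates left, inputs middle, both axes from 0) and the log2 ratio of *atpE* to *atpB* within each library (right). Circles, squares and triangles are pools 1, 2 and 3 (green *At*MKIP1-YFP, grey *At*BE3-YFP), and black bars are the mean with SD. The *At*MKIP1-YFP precipitates lie below those of *At*BE3-YFP for both genes, the inputs overlap, and the ratio is above 0 in every precipitate and near 0 in the inputs.

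The balance of the parts within a library does not depend on the library size. In the precipitates the log2 ratio of *atpE* to *atpB* was 0.62, 0.78 and 0.67 with *At*MKIP1-YFP and 0.87, 0.74 and 0.67 with *At*BE3-YFP. Both baits thus held about 1.6 to 1.7 times as many *atpE* as *atpB* reads per nt (geometric means of 1.61 and 1.70), and the difference between them of -0.07 was within the spread (exact permutation test, two-sided, p = 0.50). Over the inner stretches the ratio was 1.56 and 1.62 in the *At*MKIP1-YFP and the *At*BE3-YFP precipitates, and 0.96 and 0.95 in the *At*MKIP1-YFP and the *At*BE3-YFP inputs. The precipitate level of *atpE* comes from 1 segment that also holds 305 nt of *atpB*. In the precipitates, 479 nt of the leader share 1 segment with 997 nt of *atpB* and so have the same level. The ratio of leader to *atpB* therefore reflects the other segments of *atpB* and the outer 65 nt of the leader. It is no separate measure of the leader. The leader stood at 0.67 times the level of *atpB* with *At*MKIP1-YFP and at 0.60 times with *At*BE3-YFP. Its log2 ratios of -0.59, -0.59 and -0.52 did not overlap those of -0.70, -0.61 and -0.92. The p of 0.10 is the smallest that 3 libraries against 3 can give (0.24 adjusted over the 12 ratios tested in both fractions). The 3′ end relative to *atpB* differed by -0.04 (exact p = 0.70).

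Against other mRNAs of the same library, the ratios of *atpB* to *atpA* and to *rbcL* did not overlap between the baits. Relative to *atpA*, the α subunit of the same CF1 head, the log2 ratio was -0.36, -0.49 and -0.34 with *At*MKIP1-YFP and 0.04, 0.07 and -0.04 with *At*BE3-YFP. The difference of -0.42 had an exact p of 0.10, the smallest possible, and an adjusted p of 0.24. The inputs differed in the same direction, by -0.18, again without overlap (exact p = 0.10). Relative to *rbcL*, which encodes the large subunit of Rubisco and is read from the other strand next to the leader, *atpB* differed by -0.35 in the precipitates and by -0.16 in the inputs (exact p = 0.10 each). Relative to *psbA*, the D1 protein of photosystem II, it differed by -0.28 in the precipitates and -0.03 in the inputs, with overlapping libraries in both (exact p = 0.30 and 0.60).

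The level in the precipitate relative to the input of the same pool was lower with *At*MKIP1-YFP than with *At*BE3-YFP. Over the inner stretch, *atpB* had a log2 ratio of precipitate to input of 2.01, 1.73 and 1.56 in the *At*MKIP1-YFP pools and of 2.46, 2.92 and 3.20 in those of *At*BE3-YFP. For *atpE* it was 2.69, 2.54 and 2.15, against 3.32, 3.70 and 3.87. Every pool of both lines had a ratio above 0, and the lines did not overlap. The input RNA was depleted of ribosomal RNA and fragmented and no such step is described for the precipitates, so a ratio within 1 line includes that difference, whereas the lines were treated alike. In the test of bait and fraction together, fitted as an interaction, the excess over the input differed by -1.09 for *atpB* (SE 0.18, adjusted p = 2.1e-08) and by -1.31 for *atpE* (SE 0.19, adjusted p = 1.2e-10), and over the inner stretches by -1.11 and -1.17 (adjusted p = 1.7e-08 and 2.6e-07). Of the 115 genes and parts tested, 57.4% were lower in this test, with a median of -0.79. Scaled on the segments outside the target loci, the values were -0.29 for *atpB* and -0.51 for *atpE*, and neither passed (adjusted p = 0.23 and 0.061), as over the inner stretches (-0.30 and -0.36, adjusted p = 0.23 and 0.10). On that scale 0.870% of the genes and parts were lower.

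**Figure D4:**
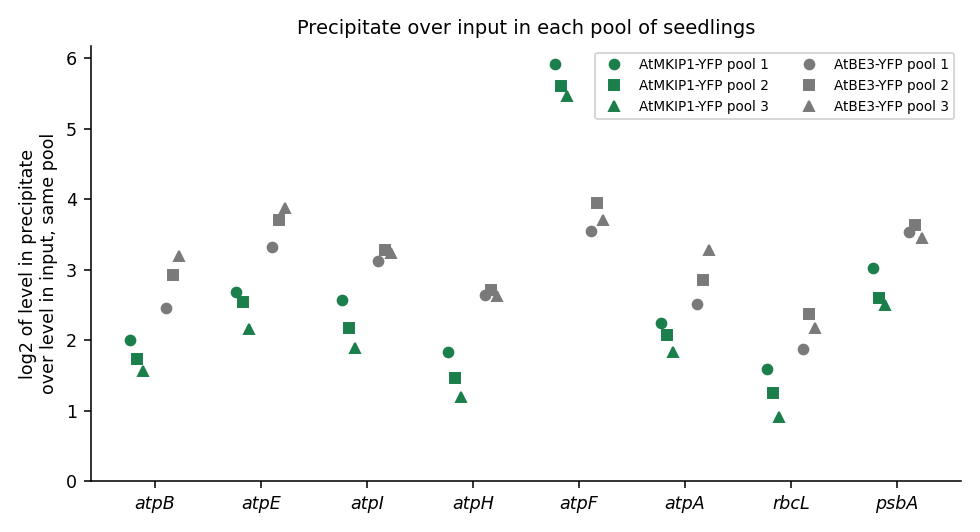
Log2 of the level in the precipitate over the level in the input of the same pool, for *atpB* and *atpE* over their inner stretches, the other plastid *atp* genes, *rbcL* and *psbA*. Each point is 1 of the 3 pools of a line (green *At*MKIP1-YFP, grey *At*BE3-YFP). The *At*MKIP1-YFP pools lie below those of *At*BE3-YFP for each gene shown but *atpF*, where they lie above.

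Of the 4 other plastid genes of the ATP synthase, 3 were lower in the *At*MKIP1-YFP precipitates and 1 was higher, against 71.8% and 8.18% of all genes and parts, with a median log2 fold change of -0.90 beside -0.74 over all genes and parts. *atpH*, the membrane ring subunit c, had a log2 fold change of -1.19 (SE 0.12), and *atpA* of -0.80 (SE 0.14). *atpI*, the membrane subunit a, had a fitted fold of 0.499 (SE 0.12 on the log2 scale). *atpF*, subunit b of the peripheral stalk and the one with a target intron, stood at 18768, 16819 and 16140 with *At*MKIP1-YFP and at 4451, 4937 and 5113 with *At*BE3-YFP, a log2 fold change of 1.84 (SE 0.13) over the gene with its intron. Scaled on the segments outside the target loci, *atpH* was still lower at -0.44 (adjusted p = 0.0019), while *atpI* at -0.25 and *atpA* at -0.04 did not pass (adjusted p = 0.031 and 0.89). In the inputs 0 of the 4 passed, and 0 had an unadjusted p under 0.05 (edgeR). With mapped reads as library size, *rbcL* and *psbA* had log2 fold changes of -0.85 (SE 0.14) and -0.92 (SE 0.17) in the precipitates.

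By level per kb, the order in the *At*MKIP1-YFP precipitates was *psbA* (103572 ± 12771), *rbcL* (19140 ± 1803), *atpF* (17242 ± 1364), *atpH* (6701 ± 674), *atpE* (2651 ± 148), *atpA* (2162 ± 169), *atpB* (1643 ± 126) and *atpI* (1465 ± 130). Of these neighbours, the libraries of *rbcL* and *atpF* overlapped, as did those of *atpB* and *atpI*. With *At*BE3-YFP the order was *psbA* (196014 ± 8277), *rbcL* (34589 ± 2377), *atpH* (15301 ± 575), *atpE* (6455 ± 951), *atpF* (4834 ± 343), *atpB* (3837 ± 816), *atpA* (3789 ± 955) and *atpI* (2938 ± 247). Here the libraries of *atpF* and *atpB* overlapped, as did those of *atpB* and *atpA* and those of *atpA* and *atpI*. *atpE* thus stood above *atpB* with both baits, and *atpB* stood below *atpA* without overlap with *At*MKIP1-YFP.

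Over the 12 libraries, the genes whose levels ran most like those of *atpB* were *ndhD*, *ndhF* and *atpA*, among 69 genes other than *atpE*. Their root mean square distance from *atpB*, on log2 levels centred on the mean of each gene, was 0.15, 0.15 and 0.17. *ndhD* and *ndhF*, which encode subunits of the chloroplast NDH complex, take their counts from the same segments and so have identical levels.

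Reads from the opposite strand were few beside those of *atpB*. The plus-strand segment over this stretch in the precipitate table, nt 48113 to 54883, also covers *trnF* and *trnM* and runs far beyond the window. It had levels of 200, 231 and 202 with *At*MKIP1-YFP and of 312, 314 and 256 with *At*BE3-YFP. The plus-strand input segment nt 52094 to 54803, which reaches into *trnM*, had 63, 108 and 76, against 81, 64 and 106. Both were below the level of *atpB* on its own strand in every library. This did not hold for the segments with the leader. The minus-strand input segment nt 53928 to 63432 had 24, 28 and 30, against 28, 27 and 29, below the plus strand in every library. In the precipitates, nt 54636 to 56679 was below the plus strand with *At*MKIP1-YFP in each library, but not in *At*BE3-YFP replicates 2 and 3.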

How the data were processed

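The authors kept trimmed reads of 18 to 60 nt (Cutadapt), mapped them with STAR to the TAIR10 chloroplast genome, used UMI-tools and the 8-nt molecular identifiers to drop duplicates, and set segment borders with DiffSegR, separately for precipitates and inputs. The versions are not given in the sources used here, and the input table's header is silent on deduplication. The deposited values are whole-number counts of reads per segment and strand. Columns with the authors' own comparison (fold changes and p-values of the segments) were not used.

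All 12 count columns were grouped by the sample labels. Segments were fitted over the whole table of each fraction by the quasi-likelihood F test of edgeR 4.0.16 (R 4.3.3; library size from the mapped reads, minimum count 10 and total 15, Benjamini-Hochberg, adjusted p under 0.01). The SE is the log2 fold change divided by the square root of F. For genes and parts, each count was multiplied by overlap over segment length plus 38 and rounded. The log2 fold changes are on the scale of the fitted counts. DESeq2 1.42.0 was an alternative. Summaries and figures used Python 3.11.15, pandas 2.3.3, scipy 1.17.1, statsmodels 0.14.6 and matplotlib 3.10.9. The edgeR fits with mapped reads as library size were also run on simulated counts with known changes, drawn independently for each row. The division of reads by overlap, the other scalings, the ratios, the likeness of genes and DESeq2 were not simulated. Sequences and frames come from the RefSeq chloroplast record of the same build.

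Named are all segments of the window, its parts, the other plastid *atp* genes, *rbcL*, *psbA* and the 3 genes most like *atpB* (at least 200 nt and a mean level of at least 10). Members and lists were chosen with earlier results of these data known. Replicates are separate pools of seedlings. Same-numbered pools of both lines did not deviate together (correlations of -0.12, 0.13 and -0.14 in the precipitates and 0.11, 0.06 and -0.14 in the inputs). Precipitate and input of 1 pool share a number by their labels, so the interaction was also fitted with the pool as a block, which changed no call for *atpB*, *atpE*, the leader and the 3′ end.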

Additional observations from a re-analysis of the deposited data

Results flagged for a closer look

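With mapped reads as library size, the difference between the baits was not the same in the precipitates and in the inputs for each of the 4 parts, by the test of the interaction itself in edgeR. The bait difference in the precipitates minus that in the inputs was -1.09 on the log2 scale for *atpB* (adjusted p = 2.1e-08), -1.31 for *atpE* (1.2e-10), -1.01 for the leader (0.00071) and -1.28 for the 3′ end (5.2e-07). In this test 57.4% of all 115 genes and parts were lower. Scaled on the segments outside the target loci, none of the 4 passed, with -0.29 for *atpB*, -0.51 for *atpE*, -0.20 for the leader and -0.49 for the 3′ end (adjusted p = 0.23, 0.061, 0.69 and 0.18). The libraries of the baits did not overlap in the precipitates and overlapped in the inputs for all 4. That was not particular to these parts. It held as well for *atpI*, *atpH*, *atpA*, *rbcL*, *psbA*, *ndhD* and *ndhF*, and for *atpF* in the higher direction. The share over all genes and parts was not taken. In the inputs, the leader and the 3′ end share their segments with other genes.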

How the results depend on the processing

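The count of 7 lower segments was between 5 and 7 with each precipitate library left out in turn (5 without *At*MKIP1-YFP replicate 3, and 6 without replicate 2 of either bait), 6 with the replicate block, 1 with no scaling and 3 with libraries scaled on the segments outside the target loci; the segment nt 51873 to 52194 passed without *At*MKIP1-YFP replicate 3 (-1.01, adjusted p = 0.0059), under TMM (-2.76), the sum of counts (-1.34) and the size factors of DESeq2 (-2.58). None of the 14 input segments passed under any alternative run. With no scaling, the precipitate log2 fold changes of -0.62 for *atpB* and -0.67 for *atpE* no longer passed (adjusted p = 0.65 each), nor did the interaction values of -0.54 and -0.75. Scaled outside the target loci, the precipitate value of *atpB* was -0.46 (-0.48 over the inner stretch), and the interaction was -0.29 for *atpB* and -0.51 for *atpE* (-0.30 and -0.36 over the inner stretches), none of them passing; with TMM the interaction of *atpB* was -0.36 (adjusted p = 0.066). With 1 library left out, the precipitate values lay between -1.33 and -1.05 for *atpB* and between -1.34 and -1.16 for *atpE*, and the interaction between -1.21 and -0.91 and between -1.39 and -1.19. With the replicate block the precipitate values were -1.21 and -1.27 and those of the interaction -1.08 and -1.31. Alternatives gave 662 values outside the fits of *atpB* and *atpE* and the counts of members. They cover single segments, other genes and parts, within-library ratios and precipitate over input. Of them, 614 stayed on their side of the threshold (a sign changed only among values that did not pass), 44 no longer passed and 4 passed anew. The ratios, with exact p-values of 0.10 or more, and precipitate over input, which had no test, could not cross the threshold. For the fits of *atpB* and *atpE* and the counts of members, 143 values were classed as the same and 13 as weaker. Counts of 5 to 8 lower precipitate members were classed as the same as 7, so those counts did not all stay. Over all segments of the precipitates, the calls were 400 higher and 84 lower, against 144 and 198 under TMM, 175 and 184 by the size factors of DESeq2, 330 and 124 with the sum of counts, 401 and 1 with no scaling, and 433 and 5 scaled outside the target loci. Over genes and parts, 9 were higher and 79 lower, against 11 and 15 with TMM, 12 and 11 by DESeq2, 9 and 0 with no scaling, 10 and 7 scaled outside the target loci, and 9 and 22 of 38 from whole segments at least 50% inside a gene. In the interaction, 9 were higher and 66 lower, against 10 and 4 with TMM, 7 and 0 with no scaling, 7 and 101 with the sum of counts, 10 and 1 scaled outside the target loci, and 5 and 19 of 67 from whole segments. The cause of these changes was not tested beyond the scaling itself. Depth limits the narrow segments most, with 4 to 30 reads per precipitate library at nt 52195 to 52196.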
